A study of Rattus norvegicus with 9 samples.

Results

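The mitochondrial ribosomal protein genes were followed across 9 kidney cortex samples of diabetic rats, strain ZDF fa/fa, in the treatment group labelled Medical Bypass. The ZDF fa/fa rat carries 2 faulty copies of the leptin receptor gene and becomes obese and diabetic. The study set gastric bypass beside the intervention called Medical Bypass, but all 9 samples analysed here are in this group, so no treatment effect can be estimated. The labels give no drugs, doses, ages, sex or batches, and they do not say whether each sample is a separate animal, so every p-value measures only the spread between these samples. Members were the genes whose symbol starts with Mrpl or Mrps followed by a digit and whose mean was at least 10 over the 9 replicates. There were 68 members, 41 of the large and 27 of the small subunit by symbol, among 13647 genes tested and 18420 genes listed. In all, 70 symbols matched. The 2 left out were Mrpl1, at 5.85 ± 2.60 (SD, n = 9), and Mrps21l, at 1.04 ± 0.976 (SD, n = 9), and the lowest member was Mrps10 at 352.1 ± 37.5 (SD, n = 9). The rule is sensitive to letter case, so mrpl11, mrpl9 and mrpl24, listed in lower case, are reported apart from the members.

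Mitochondria keep a ribosome of their own. It translates the few mRNAs of the mitochondrial genome, which code for core subunits of the respiratory chain and of ATP synthase, and it is held against the inner membrane where these subunits are inserted. Its RNAs come from mitochondrial DNA, but all of its proteins are coded in the nucleus, made in the cytosol and imported. The small subunit reads the mRNA and the large subunit joins the amino acids. Many members descend from bacterial ribosomal proteins, while others were added in mitochondria. The proximal tubule, which makes up most of the cortex, reabsorbs filtered solutes with energy from respiration and is rich in mitochondria.

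Since all members are nuclear genes and, as described further on, varied together, the DNA around their start sites is shown first. RefSeq promoters of build GRCr8 were matched by symbol for 54 of the 68 members, 33 large and 21 small, as windows of 300 bases from 250 before to 50 after the start. They were searched on both strands for AAGATGGC (letters that the factor YY1 binds), GCGCATGCGC (NRF1), CCGGAAGT (ETS factors, to which GABP belongs), CACGTG (E-box), CCAAT and TATAAA. Each motif was counted on its own, so a window may hold several. The YY1 letters stood in 12 of 54 member promoters (22.2%), against 5.34% of the 9164 genes tested that have a promoter in the table. In 10 of these 12 members they began within 50 bases of the start, as they did in 330 of the 489 genes tested that hold them. In these 10 members they began after the start, at bases 1 to 31, and on the gene's own strand. Side and strand were not tallied for the other genes. The letters include ATG, and their overlap with start codons was not tested. NRF1 letters stood in 4 members (7.41%, against 1.89%) and ETS letters in 7 (13.0%, against 8.03%). The CCAAT letters stood in 23 (42.6%, against 37.2%), TATAAA in 7 (13.0%, against 6.61%) and CACGTG in 4 (7.41%, against 9.25%). The 11 windows that follow run from 120 bases before to 30 after the start, 5′ to 3′ on the gene's strand, with matches of the YY1, NRF1 or ETS letters in capitals. The first 6 are the members whose YY1 letters fall inside this window, and they show how close to the start these lie.
Mrps7 (chr10:101342522-101342671, plus strand): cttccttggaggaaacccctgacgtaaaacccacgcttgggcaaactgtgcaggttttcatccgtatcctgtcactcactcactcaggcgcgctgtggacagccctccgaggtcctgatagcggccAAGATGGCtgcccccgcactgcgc
Mrps18a (chr9:22367351-22367500, minus strand): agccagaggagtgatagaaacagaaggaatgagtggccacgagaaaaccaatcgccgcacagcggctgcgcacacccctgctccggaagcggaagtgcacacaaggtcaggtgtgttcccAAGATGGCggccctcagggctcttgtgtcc
Mrpl37 (chr5:127074938-127075087, minus strand): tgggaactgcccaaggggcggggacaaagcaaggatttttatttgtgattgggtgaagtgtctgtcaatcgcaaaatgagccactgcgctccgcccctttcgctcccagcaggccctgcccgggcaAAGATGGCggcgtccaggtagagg
Mrpl42 (chr7:32028493-32028642, minus strand): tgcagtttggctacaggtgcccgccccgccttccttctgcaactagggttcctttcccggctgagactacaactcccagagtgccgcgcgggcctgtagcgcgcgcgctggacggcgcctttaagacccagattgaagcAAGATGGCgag
Mrpl49 (chr1:212779298-212779447, minus strand): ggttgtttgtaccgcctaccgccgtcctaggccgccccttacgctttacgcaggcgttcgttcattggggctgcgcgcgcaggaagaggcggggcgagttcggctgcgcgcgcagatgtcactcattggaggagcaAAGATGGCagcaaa
Mrps30 (chr2:52195875-52196024, minus strand): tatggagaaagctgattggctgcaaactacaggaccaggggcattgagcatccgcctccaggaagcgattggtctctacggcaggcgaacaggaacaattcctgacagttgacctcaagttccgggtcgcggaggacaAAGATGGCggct
The next 3 hold the NRF1 letters upstream of the start, a palindrome that reads the same on both strands.
Mrps18b (chr20:2842886-2843035, plus strand): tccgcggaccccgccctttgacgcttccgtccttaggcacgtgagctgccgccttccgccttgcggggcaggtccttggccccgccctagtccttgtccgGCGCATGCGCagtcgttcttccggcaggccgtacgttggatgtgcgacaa
Mrpl32 (chr17:55260531-55260680, plus strand): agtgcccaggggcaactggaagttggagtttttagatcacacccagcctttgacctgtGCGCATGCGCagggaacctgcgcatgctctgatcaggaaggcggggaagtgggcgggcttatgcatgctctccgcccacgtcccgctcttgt
Mrpl17 (chr1:169575670-169575819, minus strand): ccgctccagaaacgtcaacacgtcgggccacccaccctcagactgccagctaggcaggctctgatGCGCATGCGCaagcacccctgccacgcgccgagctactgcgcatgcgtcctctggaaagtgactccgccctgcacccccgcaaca
The last 2 hold none of the 3 in these windows and were picked after their levels were seen. Mrpl14 was among the widest swings and Mrpl51 had a pattern of its own. Mrps16, Mrps11, Mrpl2 and Mrpl20, which went with most members, also lack the 3 in their 300 bases, while Mrps7 holds the YY1 letters. No link between letters and levels was tested.
Mrpl14 (chr9:22811204-22811353, minus strand): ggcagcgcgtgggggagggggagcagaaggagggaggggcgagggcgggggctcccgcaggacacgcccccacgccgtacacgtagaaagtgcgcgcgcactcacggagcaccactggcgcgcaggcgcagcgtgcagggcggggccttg
Mrpl51 (chr4:159677868-159678017, plus strand): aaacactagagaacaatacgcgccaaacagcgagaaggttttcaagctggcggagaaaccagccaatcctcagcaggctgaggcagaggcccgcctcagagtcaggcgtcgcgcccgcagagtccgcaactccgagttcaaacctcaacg

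The libraries held from 10757440 (replicate 3) to 43071223 (replicate 8) reads in genes, with a mean of 26045365. Values are the authors' reads divided by a size factor per library, with no correction for gene length, so a level is compared between replicates of a gene and never between genes. Replicate 5 stood apart by its reads outside genes, 22.0% of all counted reads against 27.2% to 31.3% in the others, and its reads aligned to several places, the multi-aligned share, were the highest at 22.1% against 14.9% to 19.2%. Of 16 proximal tubule markers listed, 15 were matched in the table and passed the filter, with a summed level of 266175 in replicate 1 to 491840 in replicate 8. In bulk tissue, fewer cells of a type and less RNA per cell cannot be told apart.

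Every replicate expressed the set, and its share of RNA differed between them. The 68 members together took 0.360% of the reads in genes in replicate 2, 0.389% in replicate 6, 0.402% in replicate 9, 0.412% in replicate 3, 0.432% in replicate 4, 0.471% in replicate 1, 0.487% in replicate 7, 0.510% in replicate 8 and 0.541% in replicate 5. Replicates 5, 8 and 7 were thus the high end and replicates 2 and 6 the low end. Replicate 5 was the highest replicate of 41 members and replicate 8 of 14. Replicate 2 was the lowest replicate of 34 members and replicate 3 of 17. No member was highest in replicates 1, 2 or 6, and none was lowest in replicates 4, 5, 7 or 8.

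**Figure D1:**
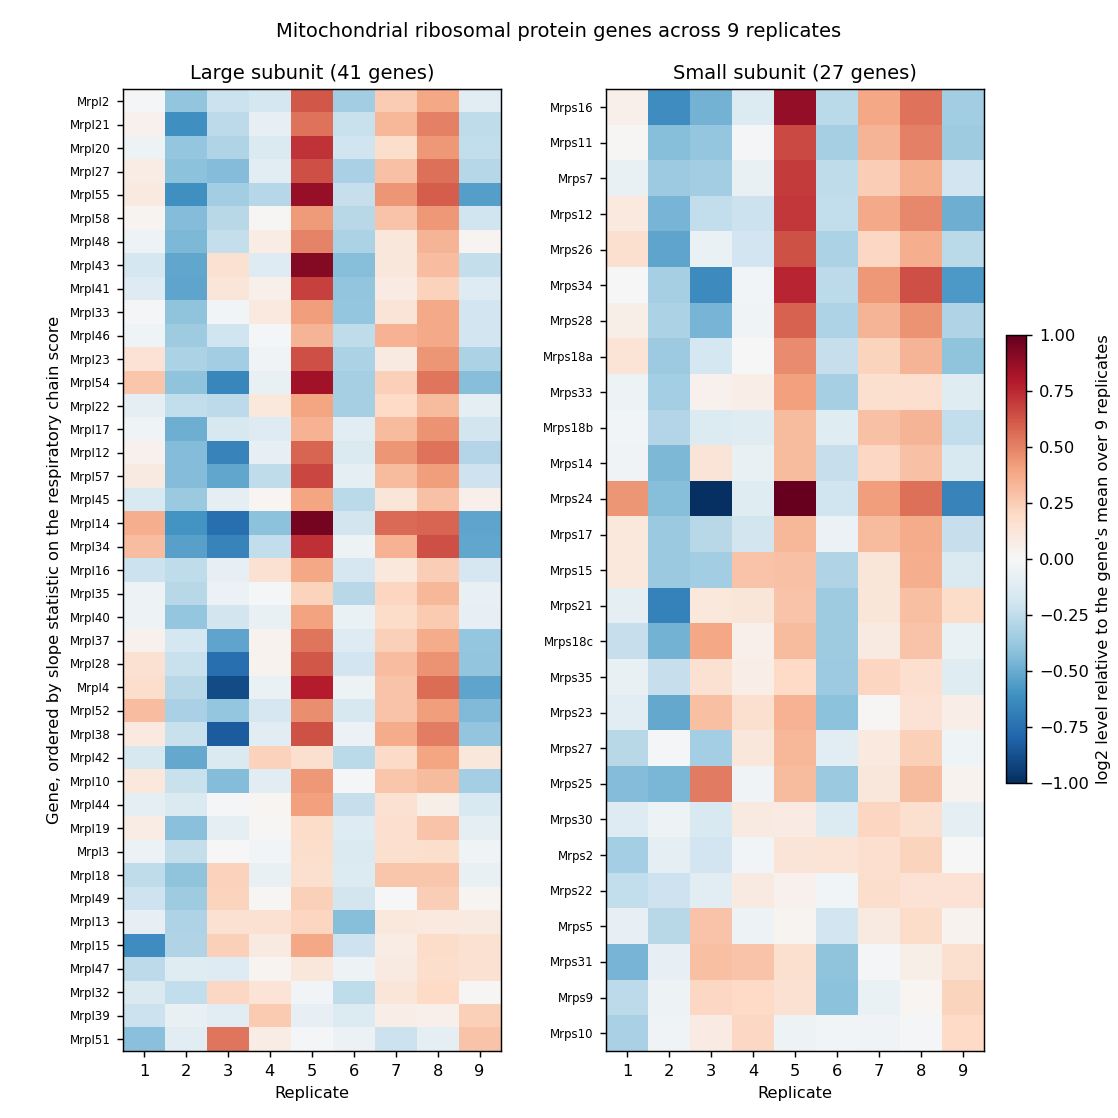
Heat map of the 41 large subunit genes (left) and 27 small subunit genes (right), 1 row per gene and 1 column per replicate, coloured by the log2 level relative to the gene's own mean over 9 replicates, from -1 (blue) to 1 (red). Most rows are red in replicates 5, 7 and 8 and blue in replicate 2, while rows near the foot, such as Mrpl51 and Mrps10, are not.

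Members differed widely in how far they swung between replicates. The ratio of the highest to the lowest replicate had a median of 1.91 over large and 1.70 over small subunit genes, and it passed 2 for 17 of 41 large and 8 of 27 small ones. The SD of the log2 level had a median of 0.31 in the large and 0.29 in the small subunit, beside 0.33 over all genes tested. The widest swing was that of Mrps24, the counterpart of bacterial S3 at the mRNA entry. Its level was 1236, 677, 456, 840, 1829, 792, 1217, 1335 and 574 in replicates 1 to 9, a 4.01-fold range, with replicate 5 highest and replicate 3 lowest. Mrpl14, whose protein lies on the face that meets the small subunit, followed the same order at its extremes. It read 955, 491, 442, 561, 1449, 654, 1102, 1116 and 515, a 3.28-fold range. Mrpl4, which lines the exit tunnel, ran from 478 in replicate 3 to 1536 in replicate 5, with a median of 861 (3.21-fold). The other members with the largest SD in their subunit were Mrpl55 (2.79-fold), Mrpl34 (2.63-fold), Mrps16 (2.83-fold), Mrps34 (2.63-fold) and Mrps12, which sits at the decoding centre (2.29-fold).

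At the other end, Mrps30 varied least, from 1155 in replicate 3 to 1486 in replicate 7 with a median of 1233 (1.29-fold). Mrps22, in which mutations cause cardiomyopathy with tubulopathy, ran from 871 in replicate 1 to 1165 in replicate 7 with a median of 1064 (1.34-fold). Mrpl3, next to the peptidyl transferase centre, ran from 1763 in replicate 2 to 2357 in replicate 8 with a median of 2044 (1.34-fold). Mrpl47, the counterpart of bacterial L29 at the tunnel exit, ran from 541 in replicate 1 to 734 in replicate 8 with a median of 662 (1.36-fold). These 4 stayed within a narrow band where Mrps24 changed several-fold.

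A test of spread against genes of a like level called no member, but it called no other gene either. Even the gene with the highest variance, 55.1 times the trend, did not pass. The test therefore cannot say whether the spread of a member is unusual. The variance of each gene was tested against limma's robust trend of variance on level, and no gene passed an adjusted p of 0.05, so the background was 0% of the genes tested and the lowest adjusted p was 0.957. At an unadjusted p under 0.05 there were 2 members, Mrps24 with a variance 6.35 times the trend and Mrpl14 with 5.64 times, among 573 of all genes tested (4.20%).

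**Figure D2:**
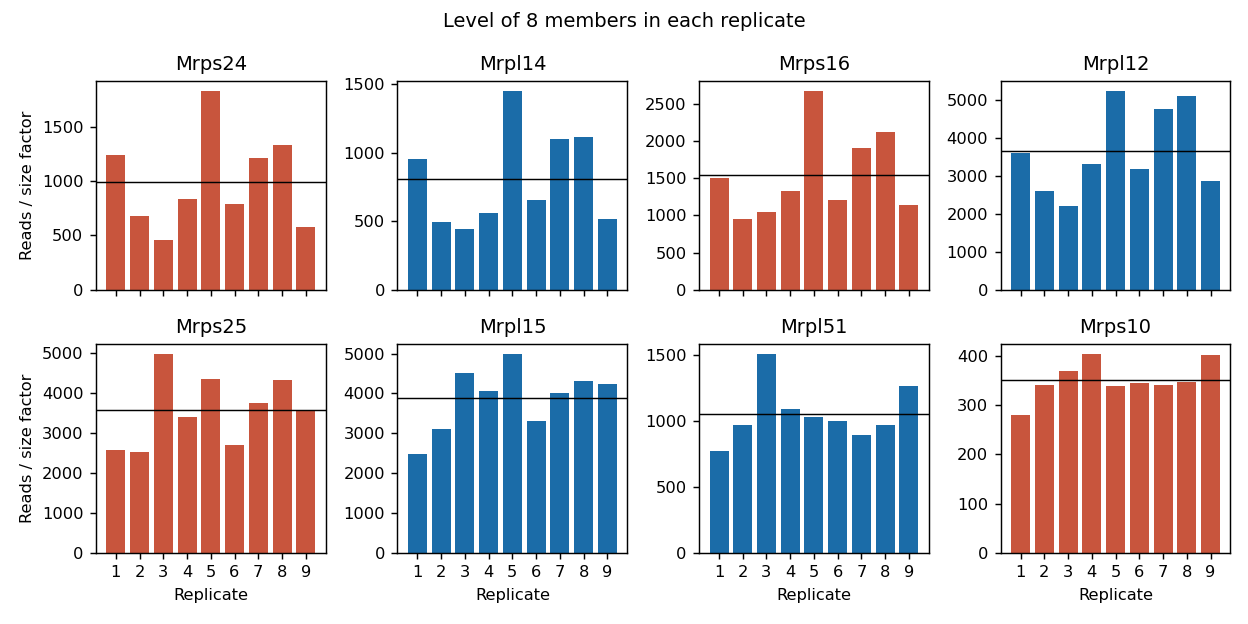
Level of 8 members in replicates 1 to 9, as reads divided by the library's size factor, large subunit in blue and small in red, with the gene's mean as a line and each vertical axis starting at 0. Mrps24, Mrpl14, Mrps16 and Mrpl12 are highest in replicate 5, Mrps25 and Mrpl51 in replicate 3, and Mrps10 in replicate 4.

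The 2 subunits moved in step, and the gap between them was small beside their common range. The mean log2 level of the large subunit, relative to its mean over replicates, was -0.03, -0.35, -0.22, -0.03, 0.46, -0.21, 0.21, 0.35 and -0.17 in replicates 1 to 9. For the small subunit it was -0.08, -0.33, -0.11, 0.02, 0.39, -0.24, 0.19, 0.30 and -0.14. Both were highest in replicate 5 and lowest in replicate 2, over a 1.75-fold range for the large and a 1.64-fold range for the small subunit. The difference of large minus small averaged -0.0041 ± 0.0603 (SD, n = 9) on the log2 scale, a value that also holds the genes' unequal lengths. What can be read is its change between replicates, which spanned 0.19, from -0.12 in replicate 3 to 0.07 in replicate 5. Without replicate 3 it spanned 0.11. With the median over genes in place of the mean the difference was -0.065 and it spanned 0.36, so the size of the gap depends on how genes are summarised. Mrps18a and Mrps30 are named for the small subunit but sit in the large one in known structures. Moved there, they left the difference at 0.02 and its span at 0.18.

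**Figure D3:**
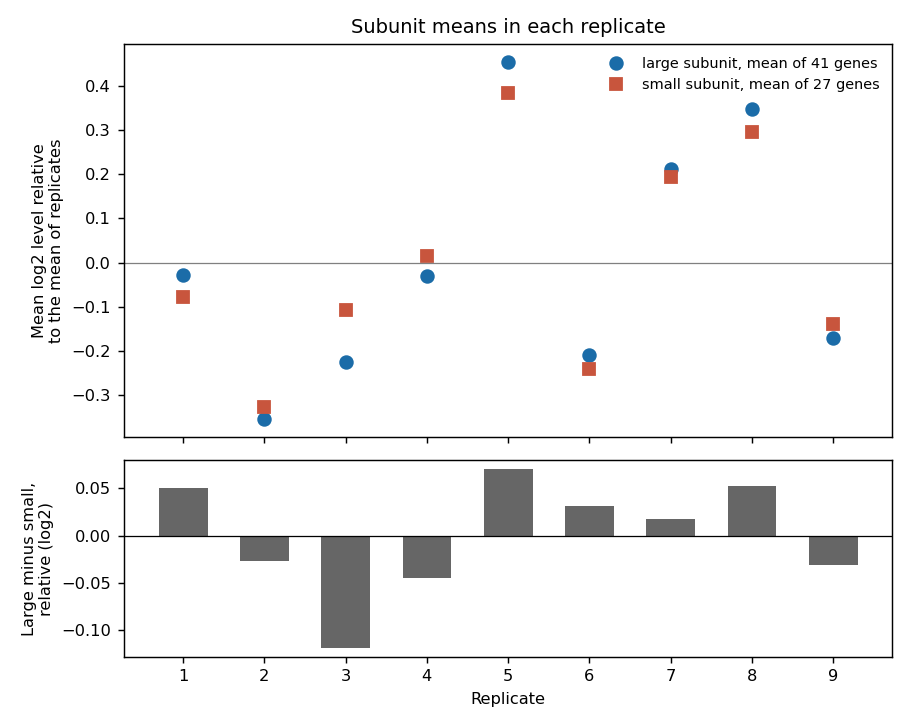
Top, mean log2 level of the 41 large (blue circles) and 27 small (red squares) subunit genes in each replicate, relative to the mean over replicates. Bottom, large minus small on the same scale, from -0.12 in replicate 3 to 0.07 in replicate 5, with the mean difference set to 0.

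Levels of the members varied together over the 9 replicates. Their mean pairwise Pearson correlation was 0.670 over the 820 pairs within the large subunit, 0.558 over 351 pairs within the small subunit and 0.611 over 1107 pairs across subunits, beside 0.0005 over pairs of all genes tested. These describe the same 9 libraries and their common scaling, and pairs that share a gene are not independent. The nuclear respiratory chain genes gave 0.668 and the cytosolic ribosomal proteins 0.722 on the same measure. Proteins that assemble the mitoribosome gave 0.302, mitochondrial translation factors 0.203 and genes of mitochondrial DNA transcription and upkeep 0.177. With every library scaled to the same total of gene reads, which shifted the median gene by -0.14 (replicate 5) to 0.16 (replicate 1) on the log2 scale, the members' values within the large, within the small and across subunits were 0.518, 0.325 and 0.418. The fold range then was 1.52 for the large and 1.42 for the small subunit. On another measure, the correlation of a member with the mean log2 level of the other members of its subunit, Mrpl51 had -0.336, Mrps10 -0.085 and Mrpl39 0.070. On that measure the highest in the large subunit were Mrpl58 with 0.986 and Mrpl21 with 0.983.

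Much of the members' variation lay along 1 axis, with a second that set replicate 3 apart. A principal component analysis of their log2 levels placed 78.5% of the variance on the first axis and 13.9% on the second. The first was highest in replicates 5 (1.63 SD), 8 (1.19 SD) and 7 (0.77 SD) and lowest in replicates 2 (-1.13 SD) and 3 (-0.97 SD), and 39 of 41 large and 26 of 27 small members loaded on it positively. The second was highest in replicates 3 (1.76 SD) and 9 (0.77 SD) and lowest in replicates 1 (-1.27 SD), 6 (-1.09 SD) and 2 (-1.07 SD). Replicate 3 was the shallowest library, and the part of depth in this axis was not tested. Members of both subunits stood at both ends, with Mrps25, Mrpl15 and Mrps18c among the most positive and Mrps24, Mrpl4 and Mrpl38 the most negative.

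Mrps25 read 2564, 2525, 4967, 3389, 4333, 2685, 3752, 4324 and 3560 in replicates 1 to 9, highest in replicate 3. Mrpl15 read 2483, 3096, 4509, 4057, 4989, 3299, 4020, 4322 and 4227, second highest in replicate 3 after replicate 5 and lowest in replicate 1. Mrpl51 read 774, 964, 1505, 1091, 1030, 997, 894, 966 and 1264, highest in replicates 3 and 9, so it went against most members. Mrps18c, the 1 of the 3 S18 relatives that takes the place of bacterial S18, was highest in replicate 3 at 1788 and lowest in replicate 2 at 989. Its relatives were highest in other replicates: Mrps18a, which lies in the large subunit, was highest in replicate 5 at 2147 and lowest in replicate 9 at 1173, and Mrps18b, a small subunit protein without a bacterial place, was highest in replicate 8 at 2166 and lowest in replicate 2 at 1394.

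**Figure D4:**
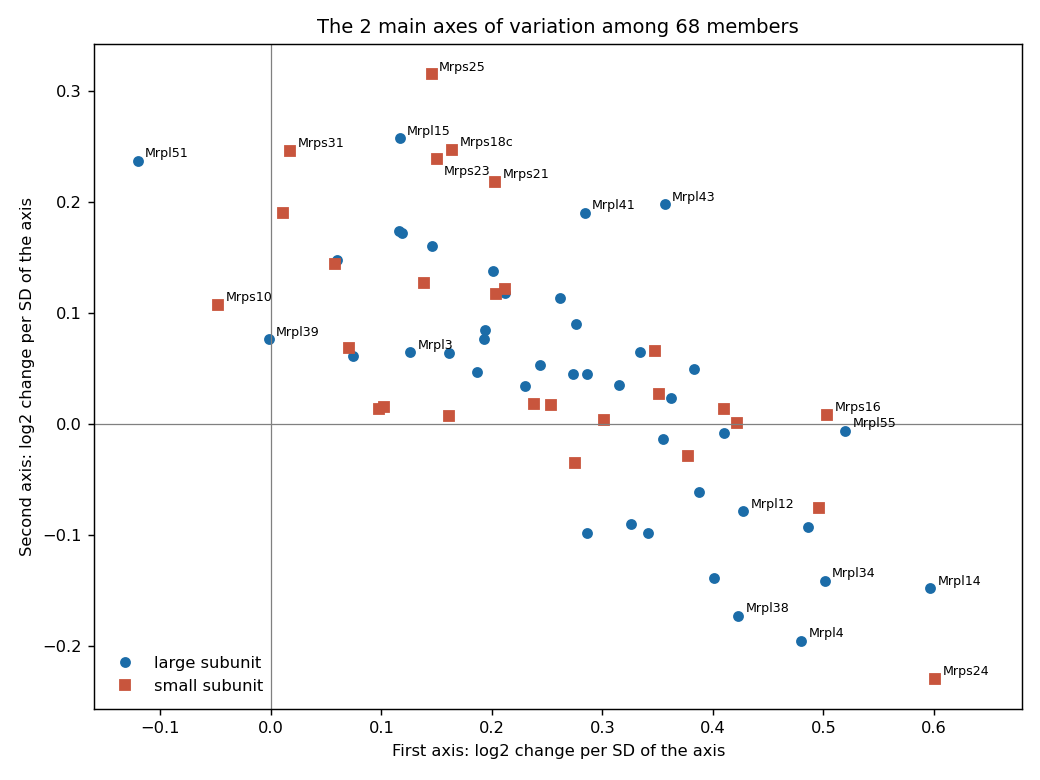
Each point is a member, placed by its log2 change per SD of the first axis (horizontal) and of the second axis (vertical), large subunit as blue circles and small as red squares. Nearly all points lie right of 0, and Mrps25 (top) and Mrps24 (bottom right) are the extremes of the second axis.

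The mitoribosome makes partner subunits for respiratory complexes whose other subunits are nuclear, so the members were set against those nuclear genes. The score was the mean z-score of 68 nuclear respiratory chain genes, none of them a member, and each gene's slope is its log2 change per SD of the score from limma over all 13647 genes tested. In the fit, 52 of 68 members were higher where the score was higher at an adjusted p under 0.05, and none was lower. Of all genes tested, 32.8% passed in either direction, 15.5% higher and 17.3% lower. By subunit, 34 of 41 large members passed (median slope 0.28) and 18 of 27 small ones (median slope 0.23), and this difference was not tested. The median slope was 0.25 over members and 0.02 over all genes tested.

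The 3 largest slope statistics were those of small subunit members. Mrps16, a protein of the small subunit body, read 1506, 945, 1049, 1323, 2676, 1208, 1908, 2124 and 1145 in replicates 1 to 9, high in replicates 5, 8 and 7 and low in replicate 2. Its slope was 0.48 ± 0.061 (SE; limma adjusted p = 0.0018). Mrps11, on the small subunit platform, ran from 945 in replicate 2 to 2000 in replicate 5 with a median of 1254, and its slope was 0.40 ± 0.055 (SE; limma adjusted p = 0.0018). Mrps7, which organises the head, ran from 1606 in replicate 2 to 3347 in replicate 5 with a median of 1957, and its slope was 0.35 ± 0.050 (SE; limma adjusted p = 0.0018). In the large subunit Mrpl2, Mrpl21 and Mrpl20 led. Mrpl2, at the peptidyl transferase centre, ran from 1089 in replicate 2 to 2198 in replicate 5 with a median of 1326, and its slope was 0.34 ± 0.049 (SE; limma adjusted p = 0.0018). The slopes of Mrpl21 and Mrpl20 were 0.38 ± 0.056 and 0.35 ± 0.053 (SE).

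Known sites of the ribosome gave a way to read the rest, in groups drawn up after the values were seen. The groups are not complete: they leave out members that passed and others that did not. Among the latter are Mrps22, Mrps25 and Mrps27 and, in the large subunit, Mrpl13, Mrpl15, Mrpl32, Mrpl39, Mrpl49 and Mrpl51. Only Mrpl47 is listed of the large members that did not pass, so large subunit groups that passed in full say little about their sites. Counts by site therefore cover the listed members only. Over all members, 34 of 41 large and 18 of 27 small passed, beside 15.5% of all genes tested that were higher. Mrpl12, which forms the stalk that recruits translation factors, read 3621, 2598, 2210, 3320, 5252, 3181, 4769, 5111 and 2865 in replicates 1 to 9. It was high in replicates 5, 8 and 7 and had a slope of 0.39 ± 0.076 (SE; limma adjusted p = 0.0037), and its anchor Mrpl10 had 0.24. All 5 members listed for the peptidyl transferase centre and tunnel wall passed (Mrpl2, Mrpl3, Mrpl4, Mrpl16 and Mrpl22), with slopes of 0.14 to 0.41. So did all 7 listed for the central protuberance (Mrpl18, Mrpl27, Mrpl38, Mrpl40, Mrpl46, Mrpl48 and Mrpl55), with 0.18 to 0.49. At the tunnel exit, Mrpl45, which faces the inner membrane, and Mrpl23 passed, with 0.24 and 0.33, and Mrpl47 had 0.10 without passing. In the small subunit, the 6 listed for the platform and body passed (Mrps11, Mrps15, Mrps16, Mrps17, Mrps18c and Mrps21), with 0.22 to 0.48. Of 7 listed in the head, 4 passed (Mrps7, Mrps14, Mrps33 and Mrps35), while Mrps9, Mrps10 and Mrps31 had 0.07, -0.01 and 0.10. At the decoding centre and mRNA entry, Mrps12 and Mrps24 passed with 0.40 and 0.51, and Mrps5 had 0.09.

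Members were also split by whether they take the place of a bacterial ribosomal protein, which is not a split by descent. Mrps18a and Mrps18b, relatives of S18, are in the class without such a place. Of 39 members with a bacterial counterpart in this sense, 31 passed (median slope 0.25), and of 29 without one, 21 passed (median slope 0.23). These classes, too, were drawn up after the values were seen, and their difference was not tested. By promoter letters, 7 of the 12 members with the YY1 letters passed (median slope 0.23), and 34 of the 42 without them (median slope 0.25). Over all members 52 of 68 passed on the respiratory chain score, beside 15.5% of all genes tested that were higher.

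The 16 members that did not pass were Mrpl13, Mrpl15, Mrpl32, Mrpl39, Mrpl47, Mrpl49, Mrpl51, Mrps2, Mrps5, Mrps9, Mrps10, Mrps22, Mrps25, Mrps27, Mrps30 and Mrps31. Their slopes ran from -0.04 (Mrpl51) to 0.23 (Mrps25), and 14 were above 0. Mrps10 read 280, 341, 370, 404, 339, 345, 341, 347 and 402 in replicates 1 to 9, lowest in replicate 1 and highest in replicates 4 and 9. Mrpl39 ran from 522 in replicate 1 to 725 in replicate 4 with a median of 575. Mrps9 ran from 1539 in replicate 6 to 2394 in replicate 9 with a median of 2079. None of these 3 was highest in replicate 5.

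**Figure D5:**
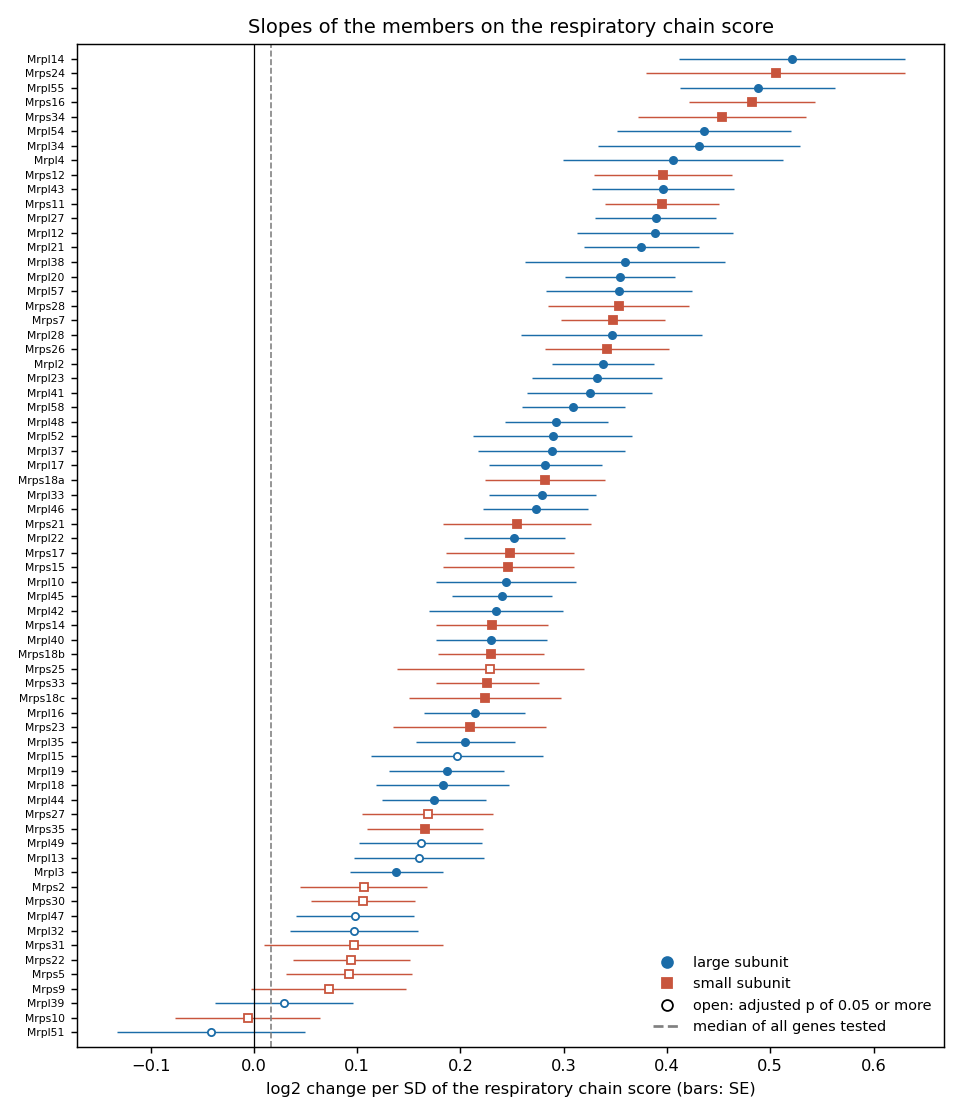
Slope of each of the 68 members on the respiratory chain score, in log2 change per SD, with its SE as a bar, large subunit as blue circles and small as red squares, filled where the adjusted p is under 0.05. The dashed line is the median of all genes tested, 0.02, and 66 of the 68 slopes lie above 0.

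These counts moved when 1 library was left out and when the multi-aligned share was added to the fit. Without replicate 5, 28 of 68 members passed, beside 8.82% of all genes tested. With the multi-aligned share as a covariate, an alternative chosen after the data were seen, no member and no gene passed, although 42 of 68 members had an unadjusted limma p under 0.05, beside 19.2% of all genes tested. That share was itself a term the members followed: 37 of 68 were higher where it was higher and none lower (25 large, 12 small), beside 35.0% of genes tested in either direction, 16.3% higher and 18.7% lower. All 37 were among the 52. Without replicate 5, 8 of 68 members passed on it, no more than the 12.8% of all genes tested. Reads aligned to more than 1 place were tallied apart from the genes, and 21 of the 68 members have a named copy or pseudogene in RefSeq, among them Mrps16, Mrps11, Mrpl2, Mrpl15, Mrpl17 and Mrps25, so their counts are uncertain. The respiratory chain score and the multi-aligned share were both highest in replicate 5 and lowest in replicate 2. Their correlation over the 9 replicates was 0.797, so a fit with both can hardly tell them apart.

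Nearly as many members passed on a score of the cell's other ribosome. On the mean z-score of 62 cytosolic ribosomal protein genes, 51 of 68 members were higher and none lower (33 large, 18 small), beside 40.5% of genes tested in either direction, 19.5% higher and 21.0% lower. All 51 were among the 52 that passed on the respiratory chain score. The summed level of the cytosolic ribosomal proteins was highest in replicate 5 and lowest in replicate 2 (1.85-fold), as was that of the nuclear respiratory chain genes (1.75-fold), so the 2 scores share their extremes and are not separate evidence. With the multi-aligned share as a covariate, 0 members passed on this score, beside 0.00733% of all genes tested, so the 0 does not set members apart. In that fit 43 members had an unadjusted limma p under 0.05, beside 16.6% of all genes tested. The score and that share had a correlation of 0.895 over the 9 replicates.

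In the main limma fits, the proximal tubule score and library size called almost no gene, so their counts of 0 do not set members apart. On the score of 15 proximal tubule markers, 0 of 68 members passed with limma (background 0.00733% of genes tested), edgeR (0%) or DESeq2 (1.55%). The median slope with limma was 0.14. None of the 15 markers passed with limma either (lowest adjusted p 0.155, Slc13a3). Slopes of Slc22a7 (-0.17) and Slc7a13 (-0.35) were below 0 and those of the other markers above, so the score measures tubule content unevenly. At an unadjusted limma p under 0.05 there were 5 members (7.35%), fewer than the 9.83% of all genes tested. Without replicate 1, the replicate with the lowest score, 33 members were higher and 1 was lower, beside 34.9% of all genes tested in either direction. On log2 library size, 0 members passed with limma (background 0% of genes tested), edgeR (0%) or DESeq2 (0.0366%). Of the members, 11 (16.2%) had an unadjusted limma p under 0.05, near the 13.4% of all genes tested. On this term 8 of 27 small and 4 of 41 large members had slopes below 0. Of the other marker lists, set against the respiratory chain score, 6 proximal tubule genes were higher and 1 lower of 15, 3 leukocyte genes higher and 1 lower of 8, 2 glomerular genes higher and 1 lower of 9, and 0 of 8 collecting duct genes passed. Of all genes tested, 32.8% passed on that score in either direction, so the glomerular count is at the background. Leukocyte markers ranged in sum from 6479 (replicate 3) to 9597 (replicate 5), glomerular ones from 18572 (replicate 2) to 24121 (replicate 9) and collecting duct ones from 21159 (replicate 9) to 45128 (replicate 1). The part of these cells in the members' levels was not tested beyond the fits given.

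Proteins of the mitoribosome with other names were split. Of 5, 3 were higher with the respiratory chain score: Chchd1 (0.36 ± 0.056, SE), Gadd45gip1 (0.31 ± 0.067, SE) and the GTP-binding Dap3 of the small subunit head (0.14 ± 0.049, SE). Aurkaip1 (-0.04) and Ptcd3, which binds RNA through pentatricopeptide repeats (-0.06), did not pass. Of the lower-case symbols, mrpl11, the L11 protein at the stalk base, had a level of 2051 ± 493 and a slope of 0.30. The levels were 1436 ± 216 for mrpl9 and 1242 ± 249 for mrpl24 (SD, n = 9), with slopes of 0.17 and 0.27, and all 3 passed.

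Of 22 assembly factors, 9 were higher and none lower (median slope 0.15), beside the 15.5% of all genes tested that were higher. They were Mpv17l2 (0.45), the rRNA methyltransferases Mrm2 (0.28) and Mrm3 (0.25), Malsu1, which binds Mrpl14 on the large subunit (0.24), Rcc1l (0.24), Mterf4 (0.23), the helicase Ddx28 (0.19), the GTPase Mtg1 (0.19) and the pseudouridine synthase Trub2 (0.16). Of 16 translation factors and mRNA-binding proteins, 5 were higher and none lower (median slope 0.02). These were the elongation factors Tsfm (0.35) and Tufm (0.25), the membrane insertase Oxa1l (0.28), the RNA-binding Slirp (0.24) and the initiation factor Mtif3 (0.20). The elongation factor Gfm1 had -0.06 and Lrpprc, the partner of Slirp, -0.06. Of 11 genes of mitochondrial DNA transcription and upkeep, Polrmt, the RNA polymerase, was higher (0.29), while Tfam, which packs the DNA, had 0.06. Of 13 genes taken as marks of mitochondrial mass, 6 were higher, with Tomm40 (0.43) and Mdh2 (0.33) at the top, and citrate synthase, Cs, had -0.16.

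Regulators of mitochondrial biogenesis did not move as a block on the respiratory chain score. Of 10 tested, 1 was higher and 3 were lower (40%), near the 32.8% of all genes tested that passed in either direction (15.5% higher, 17.3% lower). Ppargc1a, the coactivator PGC-1α, read 677, 997, 1280, 522, 371, 1341, 505, 458 and 1431 in replicates 1 to 9. It was low in replicates 5, 8 and 7, where most members were high, and high in replicates 9, 6 and 3. Its slope on the respiratory chain score was -0.63 ± 0.127 (SE; limma adjusted p = 0.0043). Gabpb2 (-0.45) and Ppargc1b (-0.34) were also lower. Esrra, the nuclear receptor ERRα that PGC-1α activates, read 1953, 1353, 1133, 1438, 3677, 1634, 2147, 2251 and 1192, highest in replicate 5. Its slope was 0.44 ± 0.098 (SE; limma adjusted p = 0.0063). The others of the 10 tested did not pass: Yy1 (-0.21), Nrf1 (-0.06), Perm1 (-0.02), Pprc1 (0.02), Gabpb1 (0.04) and Myc (0.16). Both called directions were found for the multi-aligned share as well, with slopes of -0.59 for Ppargc1a and 0.47 for Esrra.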

How the data were processed

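Stranded mRNA libraries were made from flash-frozen kidney cortex, per the labels' protocols. The deposited values are a signal computed by the authors: reads per gene divided by each library's size factor, with no length correction. Per the submitters' processing notes, HTSeq 0.6.1p1, DESeq2, FastQC 0.11.2 and MultiQC 0.9 were used with build Rnor_5.0. The aligner is not given in the sources used here. Whole reads were recovered from the values, 100% of them within 0.1 read of a whole number. The 3 rows naming no gene held 46.2% of counted reads on average and stayed out of sums and tests.

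All 9 samples formed 1 group. Genes with a mean of at least 10 were analysed as log2(value + 1), so fold changes of low genes are understated. Slopes and variances were fitted to all 13647 genes with limma 3.58.1 (robust trend, R 4.3.3), adjusted by the Benjamini-Hochberg method with a threshold of 0.05, and the code was tested on simulated data. Scores were means of z-scores. Alternatives were edgeR 4.0.16 quasi-likelihood and DESeq2 1.42.0 on recovered reads, pseudocounts of 0.5 and 5, a mean of at least 100 or no filter, TMM and equal-total scaling, covariates, leaving out each replicate, and ignoring letter case.

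Members and lists were chosen with earlier results of these data known. Named by rule were, in each subunit, the 5 highest and 3 lowest means, the 4 largest and 2 smallest SDs, the 3 most positive and 2 most negative slope statistics, and members of known biology. The remaining names were chosen after their values were seen. Promoters are from RefSeq, build GRCr8.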

Additional observations from a re-analysis of the deposited data

Results flagged for a closer look

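Dixon's gap test was applied to 74 values, 68 of them members, and 2 stood out, where chance gives about 1 in 20. Mrps10 had its lowest level in replicate 1, 279.7, and the gap to the next replicate was 0.522 of its range. The share of reads outside genes was lowest in replicate 5, 22.0%, with a gap of 0.555 of the range. Replicate 5 was also the highest replicate of 41 of the 68 members.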

How the results depend on the processing

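Of 197 values recomputed under the alternatives for the main results, 186 stayed within the set limits and 11 moved. For correlations the limits were a spread of the leave-one-out values themselves: 0.0968 (large), 0.124 (small) and 0.112 (across subunits). For the subunit difference and its span the limit was its SD over replicates, 0.0603. A mean of at least 100 removed no member, and no setting called any gene on variance. Many values could thus hardly move, and the 186 are not a measure of stability. No called result changed direction. The large minus small difference, which has no test, lies near 0 and has no fixed sign: it was below 0 in 14 of 18 settings and above 0 in 4, at 0.0163 with Mrps18a and Mrps30 moved, 0.0142 with letter case ignored, 0.0107 without replicate 3 and 0.0015 without replicate 4. Without the lowest-scoring library, replicate 1, the count on the proximal tubule score was 34, beside 34.9% of all genes tested. Leaving out each replicate gave 28 to 56 members on the respiratory chain score, 39 to 55 on the cytosolic ribosomal protein score, 0 to 34 on the proximal tubule score, 0 to 0 on library size and 8 to 42 on the multi-aligned share. The share of all genes tested that passed moved too. In the same order it was 8.82% to 42.2%, 19.5% to 44.0%, 0% to 34.9%, 0% and 12.8% to 36.5%. The low ends of 28 and 8 came without replicate 5. The count of members above the variance trend stayed at 0 throughout, as did that of all genes tested. In the same way the large minus small difference was -0.01 to 0.01 and its span 0.11 to 0.19. Mean correlations were 0.627 to 0.732, 0.510 to 0.652 and 0.566 to 0.692 within the large, within the small and across subunits. With the multi-aligned share as a covariate, chosen after seeing the data, the respiratory chain and cytosolic counts were 0 and 0. Of all genes tested, 0% and 0.00733% passed in these fits. The median over members gave a difference of -0.065 with a span of 0.36. Equal totals per library gave correlations of 0.518, 0.325 and 0.418. For single members, 83 recomputed slopes lost the threshold and 12 gained it, and 1197 did neither. The causes were not tested. Scaling to coding length was not run. No paired analysis was possible because all samples are in 1 group.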
